A study of Mus musculus with 15 samples.

Results

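The genes described here carry fatty acids into skeletal muscle and burn them in its mitochondria. They form a list of 36 genes chosen by symbol, from uptake at the cell surface to electron transfer, with 4 genes of fuel selection and lipolysis at the end. All 36 had a row among the 30672 genes of the count table and all 36 passed the filter on low counts, with which 15533 genes were tested. Transcripts were counted in tibialis anterior, a leg muscle, of 15 mice, all 129Pas males aged 7 weeks. WT mice (n = 4) and Mtm1-/y mice (n = 4), which lack the X-linked phosphoinositide phosphatase gene *Mtm1* and model X-linked myotubular myopathy, were compared with WT + TAM (n = 4) and Mtm1-/y + TAM mice (n = 3). TAM stands for tamoxifen, an oestrogen receptor modulator, and the sources used here give neither its regimen nor the making of the *Mtm1* allele. The labels present the replicates as separate samples without naming the animals, so the p-values measure the spread between these samples.

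In muscle, lipoprotein lipase on the capillary wall frees fatty acids from circulating lipoproteins, and CD36 and the fatty acid transport proteins help to move them into the fibre. Acyl-CoA synthetases activate them, the carnitine shuttle carries the long chains across the inner mitochondrial membrane, and each turn of beta-oxidation then removes an acetyl-CoA unit by dehydrogenation, hydration, a further oxidation and thiolysis. Electrons of the first step pass through the electron transfer flavoprotein to the respiratory chain. Many of these genes are known targets of the peroxisome proliferator-activated receptors (PPARs) and oestrogen-related receptors, nuclear receptors that bind the half-site AGGTCA in their target genes. PDK4 inhibits pyruvate dehydrogenase and so spares glucose, and PNPLA2 (adipose triglyceride lipase) starts the breakdown of stored triglyceride.

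Of the 36 genes, 31 had a promoter window in the RefSeq table for GRCm38.p6, in 34 windows, and the 250 bases before each start were searched on both strands. The half-site AGGTCA was present in 6 of the 34 windows (17.6%) and in 14% of all 32851 windows. It lay in those of *Acadm*, *Acadvl*, *Cpt1a*, *Cd36*, *Echs1* and *Ucp3*. The windows of *Cd36* (gene 17781690 to 17888801) and *Cpt1a* (gene 3322334 to 3385733) lie within the annotated genes, each at a start inside the gene. The extended half-site TCAAGGTCA, which contains the half-site, was in 0 of the 34 windows and 0.387% of all windows, and a direct repeat of 2 half-sites with 1 base between them in 0 of 34 and 0.0335% of all. A match of letters is not a binding site, and binding was not measured. Of the genes called lower in Mtm1-/y than in WT below, *Acadm*, *Acadvl* and *Cpt1a* had a half-site. *Fabp3*, *Acsl5*, *Cpt2*, *Slc22a5*, *Hadh*, *Eci1* and *Etfa*, also called lower, had windows without it. *Acaa2*, *Decr1* and *Acot13* were called lower too but had no window to search, and neither had *Lpl* and *Cpt1b*. *Cd36*, *Echs1* and *Ucp3* had a half-site and were not called. The upstream stretches of 4 genes are shown from 5′ to 3′ with the half-site in capitals, which reads TGACCT where it lies on the opposite strand. *Acadm* (chr3:153944644-153944893, minus strand) and *Acadvl* (chr11:70015429-70015678, minus strand) are shown as genes that were lower in the mutant, *Cd36* (chr5:17835897-17836146, minus strand) as one with a half-site that was not called, and *Pnpla2* (chr7:141454938-141455187, plus strand) as a gene that was higher and had no half-site.
Acadm: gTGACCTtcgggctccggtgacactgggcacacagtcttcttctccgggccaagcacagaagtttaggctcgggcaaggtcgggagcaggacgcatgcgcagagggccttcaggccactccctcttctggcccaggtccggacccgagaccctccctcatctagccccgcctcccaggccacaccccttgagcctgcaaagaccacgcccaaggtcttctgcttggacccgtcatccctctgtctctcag
Acadvl: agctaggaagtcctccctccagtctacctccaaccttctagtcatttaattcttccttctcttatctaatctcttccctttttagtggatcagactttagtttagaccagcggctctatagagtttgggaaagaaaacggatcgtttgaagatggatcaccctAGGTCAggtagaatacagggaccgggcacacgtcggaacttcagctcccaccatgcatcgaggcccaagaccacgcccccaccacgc
Cd36: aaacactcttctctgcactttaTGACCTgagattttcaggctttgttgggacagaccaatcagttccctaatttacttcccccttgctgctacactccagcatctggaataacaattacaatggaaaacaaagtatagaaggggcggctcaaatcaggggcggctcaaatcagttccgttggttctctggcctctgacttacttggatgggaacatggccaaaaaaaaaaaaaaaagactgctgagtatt
Pnpla2: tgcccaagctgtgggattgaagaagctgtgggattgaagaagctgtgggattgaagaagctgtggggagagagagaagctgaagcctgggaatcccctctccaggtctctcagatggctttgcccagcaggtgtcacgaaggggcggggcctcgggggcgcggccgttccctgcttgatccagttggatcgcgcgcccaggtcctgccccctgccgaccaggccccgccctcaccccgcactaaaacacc

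*Mtm1* checked the labels, with 14.9 to 15.6 CPM in WT, 13.5 to 17.7 in WT + TAM, 2.91 to 3.63 in Mtm1-/y and 3.04 to 3.71 CPM in Mtm1-/y + TAM libraries. CPM relates counts to library size scaled by the TMM factor. Libraries held 18042558 to 45823277 counts, of which the 36 genes took 0.478% to 0.548% in WT, 0.396% to 0.746% in WT + TAM and 0.528% to 0.632% in Mtm1-/y + TAM mice, with the largest share in Mtm1-/y replicate 1. The lowest count of any of the 36 genes in any library was 73. Mtm1-/y replicate 1 and WT + TAM replicate 1 stand apart across all genes. Replicate 1 of Mtm1-/y correlated with the others of its group at r of 0.961 to 0.970 over log2 CPM, replicate 1 of WT + TAM at 0.964 to 0.966, and WT libraries among themselves at 0.987 to 0.990. Among the 4 WT + TAM libraries, replicate 1 was the lowest for 27 of the 36 genes and replicate 4 the highest for 26. The myosin of fast fibres, *Myh4*, measured 55758 ± 14486 CPM in WT and that of slow fibres, *Myh7*, 2.2 ± 0.632 CPM (SD, n = 4), in a muscle known for its fast fibres.

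In WT muscle the mean level per exon length (RPKM, CPM per kilobase of annotated exon) spanned 2.01 to 186. *Acadvl*, the very-long-chain acyl-CoA dehydrogenase on the inner membrane, had the highest mean at 186 ± 10.1 RPKM (SD, n = 4). *Pdk4* (159.7 ± 22.6), the long-chain dehydrogenase *Acadl* (148 ± 8.23), the thiolase *Acaa2* (142 ± 12.5) and *Cd36* (113 ± 4.62) were the other 4 genes over 100 RPKM. The spread of *Pdk4* overlapped those of *Acadvl*, *Acadl* and *Acaa2*, so the order of *Pdk4* among them is not resolved, nor is that of *Acadl* and *Acaa2*. The cytosolic carrier *Fabp3* (99.4 ± 8.38), the flavoprotein subunit *Etfa* (97.3 ± 4.12) and the thioesterase *Acot13* (94.7 ± 3.32) followed with overlapping spreads. At the low end, 10 genes were under 10 RPKM, among them *Cpt1a* (2.30 ± 0.429), the carnitine palmitoyltransferase isoform of liver, and *Cpt1b* (3.22 ± 0.451), that of muscle. The level of *Cpt1b* is uncertain, since 81.4% of its exon bases lie on the same strand as exons of *Gm44502*, a gene not analysed here.

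**Figure D1:**
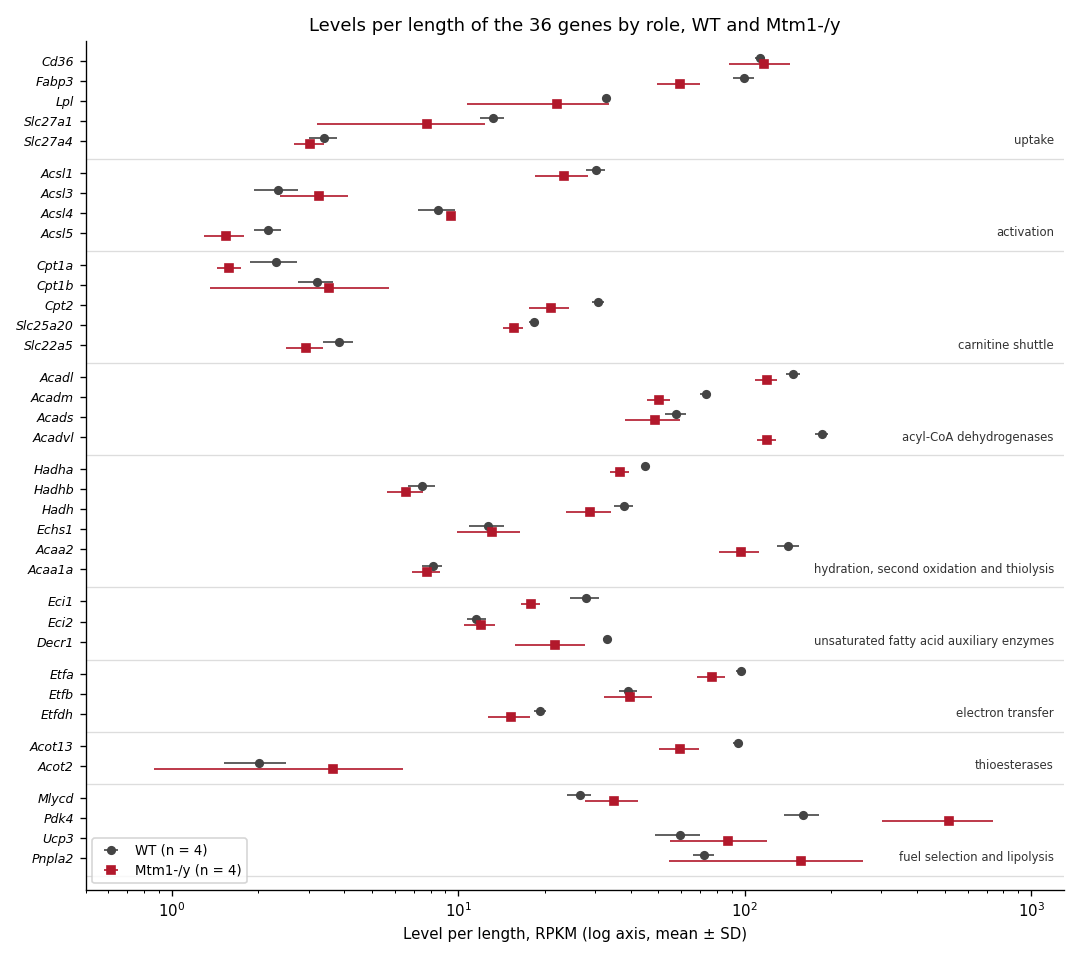
Mean level per exon length in RPKM (log axis) of the 36 genes, ordered by role, in WT (circles) and Mtm1-/y muscle (squares), with bars for the SD of 4 libraries each. *Acadvl* has the highest mean in WT at 186 RPKM and *Pdk4* in Mtm1-/y at 518 RPKM, and the mutant squares lie left of the WT circles in 24 of the 36 rows.

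Within a role the genes differed widely. Among the 4 acyl-CoA synthetases, *Acsl1*, the main isoform of oxidative tissues, took 69.9% ± 1.07 (SD, n = 4) of their summed RPKM in WT. Its share was 61.7% ± 4.52 in Mtm1-/y (SD, n = 4), 70.5% ± 6.47 in WT + TAM (SD, n = 4) and 61.0% ± 1.85 in Mtm1-/y + TAM mice (SD, n = 3). The shares of WT (69.1% to 71.4%) and Mtm1-/y (57.3% to 66.2%) did not overlap. *Hadha* and *Hadhb* encode the subunits of the mitochondrial trifunctional protein and start head to head on chromosome 5 with 272 bases between their RefSeq starts. Their RPKM in WT was 44.7 ± 0.846 and 7.47 ± 0.820 (SD, n = 4). Lengths are of all annotated exons merged, 8730 bases for *Hadha* and 6595 for *Hadhb*, so RPKM compared across genes depends on the annotation.

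Setting Mtm1-/y against WT muscle shows which of these genes differ when *Mtm1* is lost. Of the 36 genes, 13 fell and 2 rose, by edgeR's quasi-likelihood test with Benjamini-Hochberg adjustment over all tested genes. Over all 15533 genes, 30.4% were called, 14.9% lower and 15.5% higher. On the log2 scale the median fold change of the 36 genes was -0.30, and that of all tested genes was 0.00. The genes that fell lie in every role from uptake to thioesterases. Uptake, activation and electron transfer had 1 each, *Fabp3*, *Acsl5* and *Etfa*, whose calls were lost in 7, 5 and 12 of 24 alternatives. Both genes that rose belong to fuel selection and lipolysis. In 19 of the 36 genes the CPM values of the 4 mutant and 4 WT libraries did not overlap, against 30.5% of all genes. In bulk muscle, fewer cells of a type and less RNA per cell cannot be told apart. Without Mtm1-/y replicate 1 the count was 14, and without that library and WT + TAM replicate 1 it was 20, of which 2 were higher. Leaving out WT replicates 1, 3 or 4 gave 9, 9 and 8 calls. Over all genes the calls moved too, from 4727 in the main fit to 4524 without Mtm1-/y replicate 1. They were 5257 without that library and WT + TAM replicate 1, and 3783, 4004 and 3693 without WT replicates 1, 3 or 4.

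**Figure D2:**
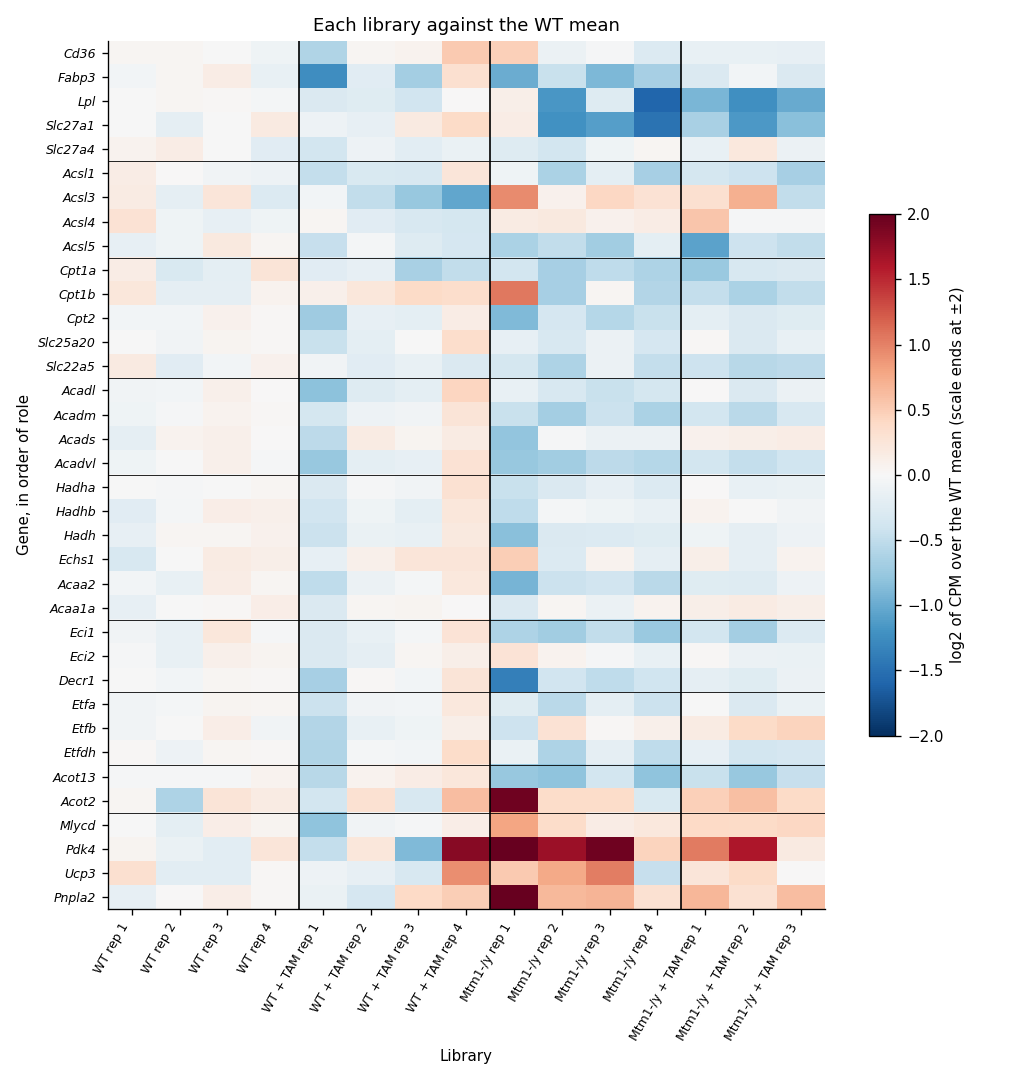
Each of the 15 libraries (columns, in 4 groups) against the WT mean for the 36 genes (rows, ordered by role), as log2 of CPM over the mean of the WT libraries, from blue (lower) through white to red (higher), with the colour scale ending at 2 either way. The mean of the Mtm1-/y columns is lower than WT for 24 of the 36 genes, red marks *Pdk4* and *Pnpla2*, and within WT + TAM replicate 1 is mostly blue and replicate 4 mostly red.

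In uptake, 1 of 5 genes fell. *Fabp3* (chromosome 4, 130308595 to 130315463), the fatty acid carrier of the muscle cytosol, measured 79.2, 83.8, 90.2 and 74.0 CPM in the WT libraries and 41.2, 59.9, 43.9 and 51.4 CPM in the Mtm1-/y libraries. All mutant libraries lay below all WT libraries (log2 fold change -0.74, SE 0.24, adjusted p = 0.0311). *Slc27a1*, a fatty acid transport protein, measured 76.3, 68.1, 76.6 and 86.7 CPM in WT and 85.3, 33.1, 35.9 and 27.6 CPM in Mtm1-/y mice, so that replicate 1 of the mutant lay among the WT values and the other 3 lay far below (log2 fold change -0.76, SE 0.28, adjusted p = 0.0586). Without that library *Slc27a1* was called lower (log2 fold change -1.26, adjusted p = 3.68e-05). The lipase gene *Lpl* also had its highest mutant value in replicate 1, above every WT library, with 340.4, 352, 348 and 333 CPM in WT and 374, 153, 288 and 115 CPM in Mtm1-/y mice (log2 fold change -0.56, adjusted p = 0.126), and was called lower without replicate 1 (log2 fold change -0.89, adjusted p = 0.0102). *Cd36* measured 405 ± 16.6 and 418 ± 101 CPM in WT and Mtm1-/y mice (SD, n = 4 each; log2 fold change 0.04, SE 0.19), and without replicate 1 the value turned (log2 fold change -0.13, adjusted p = 0.607). The transport protein gene *Slc27a4* measured 14.98 ± 1.64 and 13.4 ± 1.64 CPM (log2 fold change -0.16, SE 0.12).

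Of the 4 acyl-CoA synthetase genes, *Acsl5* fell (log2 fold change -0.48, SE 0.15, adjusted p = 0.0274), from 10.5 ± 1.13 to 7.51 ± 1.21 CPM (SD, n = 4 each). *Acsl1* was the most abundant, with 317 ± 24.6 and 245 ± 51.4 CPM, and did not pass the test (log2 fold change -0.37, adjusted p = 0.0971), whereas without Mtm1-/y replicate 1 it was called lower (log2 fold change -0.48, adjusted p = 0.0366). *Acsl3* and *Acsl4*, isoforms also known from lipid droplet formation and arachidonate handling, had log2 fold changes of 0.47 (SE 0.26) and 0.15 (SE 0.13). Of the 5 genes of the carnitine shuttle, 3 fell. *Cpt2*, the transferase on the matrix side, went from 70.6, 70.8, 77.9 and 74.4 CPM in WT to 39.6, 58.0, 49.6 and 53.8 CPM in Mtm1-/y libraries, with no overlap (log2 fold change -0.55, SE 0.15, adjusted p = 0.0109). *Cpt1a*, on the outer membrane, went from 17.6 ± 3.28 to 12.1 ± 1.15 CPM (log2 fold change -0.54, SE 0.15, adjusted p = 0.013), a call lost in 1 of 24 alternatives, without WT replicate 4 (adjusted p = 0.0509). The carnitine importer *Slc22a5* was lower as well, at 13.3, 10.04, 11.3 and 12.5 CPM in WT and 9.23, 7.70, 10.8 and 8.44 CPM in Mtm1-/y libraries (log2 fold change -0.38, SE 0.12, adjusted p = 0.0232). *Slc25a20*, the carnitine-acylcarnitine translocase, did not overlap between groups (88.0, 84.5, 92.1 and 90.1 CPM against 79.3, 70.7, 81.9 and 70.3 CPM) and did not pass the test (log2 fold change -0.23, adjusted p = 0.197). *Cpt1b* measured 22.6, 6.86, 11.2 and 7.19 CPM in Mtm1-/y mice against 10.8 ± 1.52 CPM in WT (SD, n = 4), with its highest value in replicate 1 (log2 fold change 0.14, adjusted p = 0.746). Without that library the value of *Cpt1b* turned (log2 fold change -0.37, adjusted p = 0.0921).

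All 4 acyl-CoA dehydrogenase genes, which catalyse the first step of each turn for different chain lengths, had negative log2 fold changes, and 2 passed the test. *Acadvl* (chromosome 11, 70010183 to 70015411) measured 471, 497, 536 and 494 CPM in WT and 294, 307, 347 and 336 CPM in Mtm1-/y libraries, and the groups lay well apart (log2 fold change -0.64, SE 0.16, adjusted p = 0.00669). Of its exon bases, 42.9% also lie in exons of *Dvl2* on the opposite strand, and the sources used here do not say whether counting was by strand. *Acadm* (chromosome 3, 153922357 to 153944632), for medium chains, measured 271, 283, 300.0 and 292 CPM and 209.7, 178, 214 and 184 CPM (log2 fold change -0.54, SE 0.12, adjusted p = 0.00297). The half-sites shown above lie in the upstream stretches of both. *Acadl* did not overlap between groups, at 282, 285, 318 and 299 CPM in WT and 268, 237, 218 and 233 CPM in Mtm1-/y libraries, and did not pass the test (log2 fold change -0.31, adjusted p = 0.215). The short-chain gene *Acads* measured 75.1, 128, 120.1 and 120.1 CPM in Mtm1-/y against 130.1 ± 10.9 CPM in WT mice (SD, n = 4; log2 fold change -0.23, adjusted p = 0.299), so that replicate 1 alone lay far below WT, and without it the log2 fold change was -0.08. The summed CPM of the 4 genes was 1212 ± 63.9 in WT and 867 ± 23.9 in Mtm1-/y mice (SD, n = 4 each), 71.6% of the WT mean.

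Among the 6 genes of hydration, the further oxidation and thiolysis, *Acaa2* and *Hadh* fell. *Acaa2* (chromosome 18, 74779197 to 74806208), the mitochondrial thiolase, measured 207, 194, 238 and 221 CPM in WT and 113, 160.4, 166 and 147 CPM in Mtm1-/y libraries (log2 fold change -0.55, SE 0.14, adjusted p = 0.00905). *Hadh*, the hydroxyacyl-CoA dehydrogenase of shorter chains, measured 167, 193, 194 and 199.8 CPM in WT and 106, 154, 156 and 159.7 CPM in Mtm1-/y libraries, with the lowest value in mutant replicate 1 (log2 fold change -0.39, SE 0.14, adjusted p = 0.0437). Of the trifunctional protein genes, *Hadha* did not overlap between groups at 388, 383, 390.2 and 400.4 CPM in WT and 287, 320.1, 348 and 323 CPM in Mtm1-/y libraries (log2 fold change -0.29, adjusted p = 0.061). *Hadhb* measured 49.3 ± 5.41 and 43.4 ± 6.13 CPM (SD, n = 4 each; log2 fold change -0.18, adjusted p = 0.313). The hydratase *Echs1* (log2 fold change 0.06, SE 0.16) and the peroxisomal thiolase *Acaa1a* (log2 fold change -0.07, SE 0.10) were near 0 on that scale, and without Mtm1-/y replicate 1 both turned in sign (-0.12 and 0.001). Of the auxiliary enzymes for unsaturated fatty acids, *Eci1* and *Decr1* fell. The isomerase *Eci1* (chromosome 17, 24426641 to 24439348) measured 56.2, 53.3, 69.0 and 58.4 CPM in WT and 38.5, 36.4, 42.1 and 35.5 CPM in Mtm1-/y libraries (log2 fold change -0.64, SE 0.13, adjusted p = 0.00177). The reductase *Decr1* (chromosome 4, 15917240 to 15945507) measured 128, 123, 131 and 131 CPM and 49.9, 99.0, 90.7 and 97.7 CPM, with replicate 1 far below the other mutant libraries and all 4 below WT (log2 fold change -0.61, SE 0.20, adjusted p = 0.0291). *Eci2*, the isomerase shared with peroxisomes, was at 64.1 ± 4.91 and 66.4 ± 8.28 CPM (log2 fold change 0.05, SE 0.11), a value that also turned without replicate 1 (log2 fold change -0.03).

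In electron transfer, *Etfa* fell (log2 fold change -0.34, SE 0.12, adjusted p = 0.0438) from 178 ± 7.56 to 141 ± 15.5 CPM (SD, n = 4 each). Its partner subunit *Etfb* stood at 45.6 ± 3.16 and 46.3 ± 8.87 CPM (log2 fold change 0.02, SE 0.15), and the ubiquinone oxidoreductase *Etfdh* measured 145 ± 7.00 and 114 ± 18.9 CPM with no overlap between groups (log2 fold change -0.34, adjusted p = 0.118). On the same strand, 53% of the exon bases of *Etfb* lie in exons of *Gm45233*, which was not analysed here. Of the thioesterases, which release free acids from acyl-CoA, *Acot13* fell. *Acot13* (chromosome 13, 24817948 to 24831540) measured 69.4, 69.0, 69.3 and 74.1 CPM in WT and 41.9, 40.2, 54.8 and 40.3 CPM in Mtm1-/y libraries (log2 fold change -0.67, SE 0.15, adjusted p = 0.00352). *Acot2* measured 17.1, 5.73, 5.72 and 3.56 CPM in Mtm1-/y against 4.42 ± 1.07 CPM in WT mice (SD, n = 4; log2 fold change 0.86, adjusted p = 0.12), with its highest value in replicate 1, without which the log2 fold change was 0.17. *Acot2*, *Acaa1a* and *Eci2* have close copies (*Acot1*, *Acaa1b*, *Eci3*), and the sources used here do not say how reads matching both were counted.

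All 4 genes of fuel selection and lipolysis had positive log2 fold changes, and 2 rose. *Pdk4* (chromosome 6, 5483351 to 5496309) measured 582, 510.4, 487 and 663 CPM in WT and 2519.8, 1835, 2162 and 764 CPM in Mtm1-/y libraries. The mutant replicates 1 to 3 were far above WT and replicate 4 only just above it, for a 3.25-fold difference (log2 fold change 1.70, SE 0.55, adjusted p = 0.0315). The *Pdk4* call was lost in 9 of 24 alternatives, among them the omission of WT replicates 1, 2, 3 or 4 or of Mtm1-/y replicates 1, 2 or 3 (adjusted p 0.0555 to 0.0821), while the log2 fold change stayed between 1.50 and 1.95. *Pnpla2* (chromosome 7, 141455198 to 141460743) measured 194, 219, 239 and 221 CPM in WT and 935, 342, 348 and 269 CPM in Mtm1-/y libraries, and again no mutant value reached down to WT (log2 fold change 1.12, SE 0.33, adjusted p = 0.0192). Without Mtm1-/y replicate 1, which held the highest value, *Pnpla2* was still called at a smaller size (log2 fold change 0.55, adjusted p = 0.029), and without WT replicate 1 its adjusted p was 0.0515. *Mlycd*, which degrades the malonyl-CoA that blocks CPT1, measured 78.1, 68.6, 86.7 and 82.0 CPM in WT and 136, 102, 87.0 and 91.5 CPM in Mtm1-/y libraries (log2 fold change 0.40, adjusted p = 0.0888). The mitochondrial carrier gene *Ucp3* measured 268, 315, 376 and 136 CPM in Mtm1-/y against 186 ± 33.4 CPM in WT (SD, n = 4; log2 fold change 0.56, adjusted p = 0.182), and Mtm1-/y replicate 4, the lowest of its group for *Pdk4*, was also the lowest for *Ucp3* and *Pnpla2*.

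**Figure D3:**
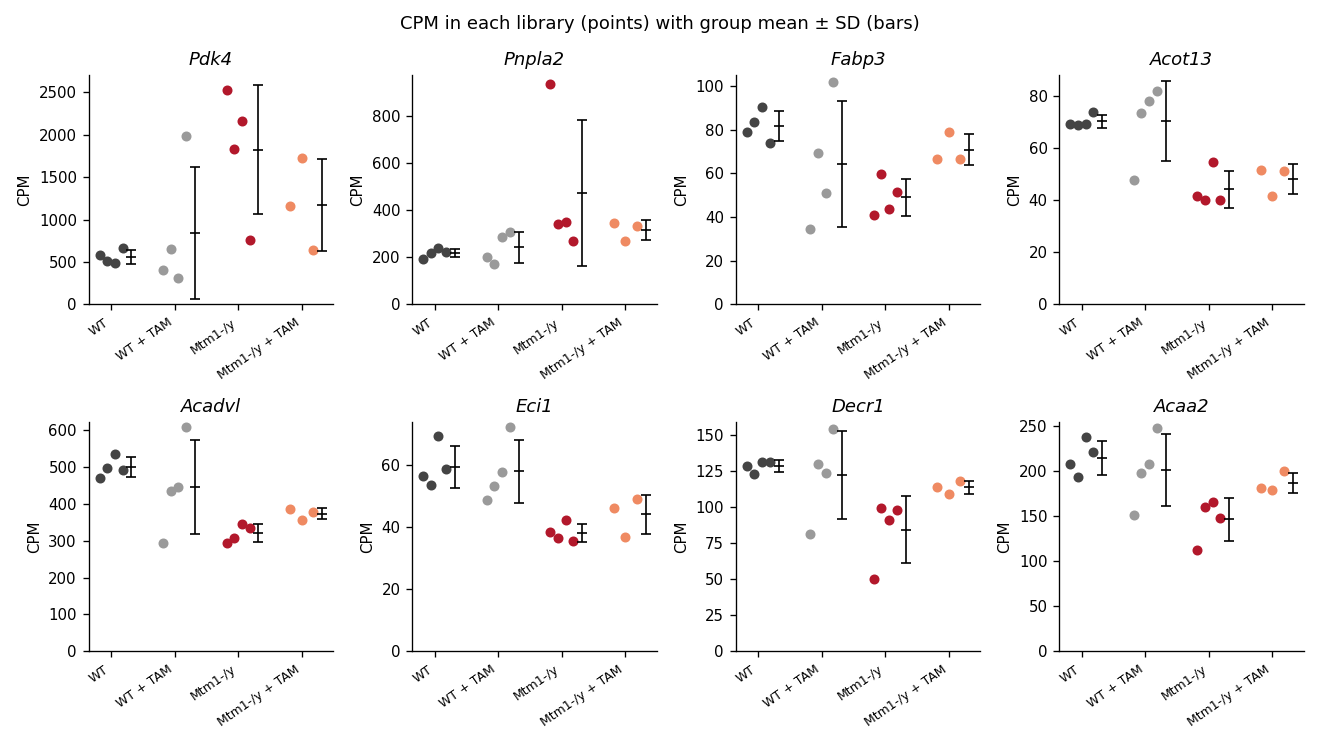
CPM in each library (points) for the 8 genes with the largest called differences between Mtm1-/y and WT, in the 4 groups, with bars for the group mean ± SD and all axes from 0. In each panel the Mtm1-/y points lie wholly above (*Pdk4*, *Pnpla2*) or wholly below (the other 6) the WT points.

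The 6 calls of *Acaa2*, *Acadm*, *Acadvl*, *Acot13*, *Cpt2* and *Eci1* held in all 24 alternatives, and the other 9 were lost in at least 1. These 24 did not limit the size of the fold change. With a log2 fold change over 1 in size also required, none of the 6 held, and the 2 calls left were *Pdk4* and *Pnpla2*. *Fabp3* was lost in 7 (highest adjusted p 0.0958), *Decr1* in 5 (0.0728), *Acsl5* in 5 (0.0833), *Slc22a5* in 6 (0.0766), *Etfa* in 12 (0.121) and *Hadh* in 13 (0.1), each with its direction kept. Without Mtm1-/y replicate 1 the calls of *Fabp3* (log2 fold change -0.66, adjusted p = 0.0838), *Acsl5* (log2 fold change -0.44, adjusted p = 0.0583), *Hadh* (log2 fold change -0.27, adjusted p = 0.0987) and *Pdk4* (log2 fold change 1.50, adjusted p = 0.0821) were lost.

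Summed over a role, the CPM of Mtm1-/y and WT libraries did not overlap for 7 of the 9 roles, all but uptake and activation. Of the other lists described below, the sums of regulators, peroxisomal, ketone body, pyruvate dehydrogenase and tricarboxylic acid cycle genes did not overlap either. Those of lipid droplet, lipid delivery and other mitochondrial genes overlapped. Each sum is weighted to its most abundant genes, as that of the thioesterases is to *Acot13*. The 4 dehydrogenases summed to 1138 to 1293 CPM in WT and 847 to 899 CPM in Mtm1-/y libraries, and the 6 genes of hydration to thiolysis to 922 to 1029.7 and 718 to 859 CPM. The mutant mean was 78.5% of the WT mean for the carnitine shuttle, 71.6% for the dehydrogenases, 81.0% for hydration to thiolysis, 75.0% for the auxiliary enzymes, 81.7% for electron transfer and 69.9% for the thioesterases. Uptake (545 to 1076 CPM against 888 to 938 CPM in WT) and activation (271 to 378 against 359 to 428 CPM) reached into the WT range. Fuel selection and lipolysis went the other way, with 1260.3 to 3859 CPM in Mtm1-/y and 959 to 1156 CPM in WT libraries, most of it *Pdk4*. In Mtm1-/y + TAM mice the means were 71.5% of the WT mean for uptake, 78.3% for activation, 82.7% for the dehydrogenases, 93.6% for hydration to thiolysis and 173% for fuel selection and lipolysis. In WT + TAM mice the corresponding means were 95.2%, 87.1%, 92.5%, 97.4% and 130.4%, over libraries that ranged from 777 to 1496 CPM for the dehydrogenases alone.

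Some markers of other cells moved with these differences. The summed CPM of 10 endothelial genes ranged from 666 to 831 in WT and from 412 to 483 in Mtm1-/y libraries, and 8 of the 10 fell. Of 10 adipocyte genes 0 were called by edgeR (0 also at unadjusted p under 0.05), and their sum ranged from 3098 to 3976 in WT and from 1740.3 to 3624 CPM in Mtm1-/y libraries, nearly all from *Car3*, which muscle fibres also express. The defining adipocyte genes *Adipoq* and *Plin1* were at 1.62 ± 0.465 and 1.05 ± 0.283 CPM in WT (SD, n = 4) and at 0.478 ± 0.243 and 0.318 ± 0.207 CPM in Mtm1-/y muscle (SD, n = 4). Of 10 slow and oxidative fibre genes, 1 fell (*Myl3*, a slow myosin light chain, log2 fold change -3.81, adjusted p = 0.000125), and their sum, 3747 to 5211 CPM in WT, was 3437 to 3899.8 CPM in Mtm1-/y libraries. By gene, however, 6 of these 10 had positive log2 fold changes, the median was 0.64 and the highest, of *Tnni1*, 2.65 (adjusted p = 0.0656), and 7 did not overlap between groups. In the fast fibre list 1 of 10 fell (*Tnnt3*, log2 fold change -0.51, adjusted p = 0.00299), with sums of 167699 to 224462 and 140989 to 183205 CPM. In the macrophage list 2 of 10 genes (*Cd68*, *Ctss*) rose, with sums of 30.3 to 55.6 and 37.5 to 98.3 CPM, and 4 of 6 liver genes (*Alb*, *Apoa1*, *Apoa2*, *Ttr*) rose at low levels (3.35 to 3.79 and 9.44 to 10.2 CPM). Of 8 red blood cell genes, 5 were tested and 0 called, with 0 at an unadjusted p under 0.05, and their sums were 69.1 to 96.3 and 14.9 to 66.6 CPM. The part of these cells in the differences was not tested.

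Other genes of the pathway were read from lists of the same kind. The share called was 31.25% of the regulators, close to the 30.4% of all genes, 40% of the lipid droplet and of the peroxisomal genes, 22.2% of those of lipid delivery, 44.8% of the other mitochondrial genes, 71.4% of the ketone body genes, 46.2% of the pyruvate dehydrogenase genes and 56.25% of the tricarboxylic acid cycle genes. Of 16 regulators, the PPAR genes and the PGC-1 coactivators did not pass the test between Mtm1-/y and WT. *Ppara* was at 4.86 ± 1.67 and 3.46 ± 1.86 CPM (log2 fold change -0.49, adjusted p = 0.268), *Ppard* at 33.7 ± 2.26 and 34.4 ± 5.31 (log2 fold change 0.03, adjusted p = 0.851) and *Ppargc1a* at 29.5 ± 4.01 and 31.9 ± 19.7 CPM (log2 fold change 0.11, adjusted p = 0.819; SD, n = 4 each). Of the 16, 1 rose and 4 fell, and the largest log2 fold changes in size among those called were those of *Foxo1*, a forkhead transcription factor (log2 fold change 1.73, adjusted p = 0.00842), the AMP kinase subunit *Prkab2* (log2 fold change -1.31, adjusted p = 9.24e-05) and the retinoid receptor *Rxrg* (log2 fold change -1.18, adjusted p = 0.00249). Among 15 lipid droplet and lipolysis genes, 3 rose and 3 fell, and among those called the log2 fold changes largest in size were those of the droplet proteins *Cidea* (1.64) and *Plin4* (1.27) and of monoglyceride lipase *Mgll* (-0.68). The droplet protein gene *Plin5* was at 21.04 ± 2.65 and 19.2 ± 9.08 CPM (log2 fold change -0.13, adjusted p = 0.835). Of 11 genes of lipid delivery, 9 were tested. *Angptl4*, an inhibitor of lipoprotein lipase and known PPAR target, rose (log2 fold change 1.26, adjusted p = 0.0235), and *Cav1* fell (log2 fold change -1.01, adjusted p = 0.000266).

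Neighbouring routes of acetyl-CoA were read in the same way. All 16 genes of the tricarboxylic acid cycle had negative log2 fold changes and 9 fell, led by *Suclg1* (-0.83), *Sdha* (-0.64) and *Mdh2* (-0.55), with a median log2 fold change of -0.42. Of 13 genes of pyruvate dehydrogenase and its control, 5 fell and 1 rose. The kinase gene *Pdk3* rose (log2 fold change 1.73, adjusted p = 0.000294) from 1.51 ± 0.385 to 4.96 ± 1.76 CPM (SD, n = 4 each), the phosphatase regulator *Pdpr* (-1.02) and the catalytic subunit *Pdha1* (-0.80) fell, and *Pdk2*, at 539 ± 10.6 and 529 ± 91.3 CPM, did not pass the test (log2 fold change -0.03, adjusted p = 0.906). Among 7 ketone body genes 5 passed the test, 4 of them lower, among them *Bdh1* (log2 fold change -1.77) and *Oxct1* (log2 fold change -1.02), which use ketone bodies. Of 15 peroxisomal genes 5 fell and 1 rose, none by a log2 fold change over 0.59 in size (*Pex11a* -0.59, *Abcd2* -0.57, *Ehhadh* -0.52). Of 29 other mitochondrial fatty acid genes 7 fell and 6 rose, with a median log2 fold change of -0.06. The largest in size among those called were the thioesterase *Acot9* (1.07), the propionyl-CoA carboxylase subunit *Pcca* (-0.67) and the synthetase *Acsl6* (0.66).

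Among treated animals, mutants were compared with WT, and neither group is shared with the untreated comparison. For each gene both comparisons used 1 estimate of the spread from all 15 libraries, so their p-values are not independent. The treated comparison called 4 of the 36 genes, 2 lower and 2 higher, against 20.1% of all genes (9.46% lower and 10.6% higher). Their median log2 fold change was -0.06, against -0.02 for all genes, and 7 of the 36 did not overlap between groups, against 31.6% of all genes. *Acot13* was called in both comparisons, 1 of the 15 calls without tamoxifen (6.67%) and 1 of the 4 under it (25%). It measured 47.9, 73.8, 78.2 and 82.0 CPM in WT + TAM and 51.8, 41.7 and 51.3 CPM in Mtm1-/y + TAM libraries, with WT + TAM replicate 1 inside the mutant range (log2 fold change -0.55, SE 0.16, adjusted p = 0.026). *Slc27a1* (chromosome 8, 71568882 to 71587302) measured 71.9, 68.6, 87.4 and 99.8 CPM and 49.0, 34.9 and 42.9 CPM, with no overlap (log2 fold change -0.96, SE 0.31, adjusted p = 0.0459). *Etfb* (chromosome 7, 43444083 to 43457800) was higher in the mutant, with 30.4, 41.2, 42.9 and 49.3 CPM and 51.2, 59.6 and 61.8 CPM (log2 fold change 0.49, SE 0.16, adjusted p = 0.0392). *Mlycd* (chromosome 8, 119394878 to 119411102) was higher too, with 45.1, 75.2, 77.7 and 86.7 CPM and 104, 103 and 105 CPM (log2 fold change 0.54, SE 0.18, adjusted p = 0.0487).

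The count of 4 rested on few libraries. Of the 4 calls, those of *Acot13* and *Etfb* were each lost in 7 of 24 alternatives, that of *Slc27a1* in 12 and that of *Mlycd* in 16. *Mlycd* was also the one lost with RLE factors and with the replicate block. Leaving out single libraries gave 0 to 9 calls. The count was 0 without WT + TAM replicate 2, WT + TAM replicate 3 or Mtm1-/y + TAM replicate 2, 1 without WT replicate 2, WT replicate 4 or Mtm1-/y + TAM replicate 1, 2 without WT replicate 3 or Mtm1-/y + TAM replicate 3, and 9 without Mtm1-/y replicate 1. Calls over all genes moved too, from 3121 in the main fit. In the order just given they were 2607, 2246 and 1656, then 2843, 2868 and 2119, then 2888 and 2121, and 4097. Without WT + TAM replicate 1 they were 3339, without WT + TAM replicate 4 2488, and without both libraries that stand apart 4600. Without WT + TAM replicate 1 the calls of *Slc27a1*, *Etfb* and *Mlycd* were lost, and *Acsl3*, *Acsl4*, *Acadm*, *Acadvl* and *Eci1* were called instead. Without WT + TAM replicate 4 the median of the 36 genes turned to 0.05, and 3 were called, all higher. The count was 14, with 10 lower and 4 higher, without Mtm1-/y replicate 1 and WT + TAM replicate 1 together, when *Acadm* (log2 fold change -0.44, adjusted p = 0.0068), *Acadvl* (log2 fold change -0.41, adjusted p = 0.0151), *Eci1* (log2 fold change -0.47, adjusted p = 0.0151) and *Cpt1b* (log2 fold change -0.86, adjusted p = 0.00153) were among those lower. *Pdk4* measured 405, 656, 306 and 1980.5 CPM in WT + TAM and 1155, 1722 and 638 CPM in Mtm1-/y + TAM mice, so that WT + TAM replicate 4 exceeded every treated mutant (log2 fold change 0.49, adjusted p = 0.598), and without that library *Pdk4* was called higher (log2 fold change 1.36, adjusted p = 0.0473). Of the endothelial list 7 of 10 genes were lower (sums 496 to 799 and 372 to 493 CPM), and of the regulators 6 of 16 were lower, with log2 fold changes of -1.43 for *Rxrg*, -1.25 for *Esrrb* and -1.12 for *Ppara*. The part of the marked cells was not tested.

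**Figure D4:**
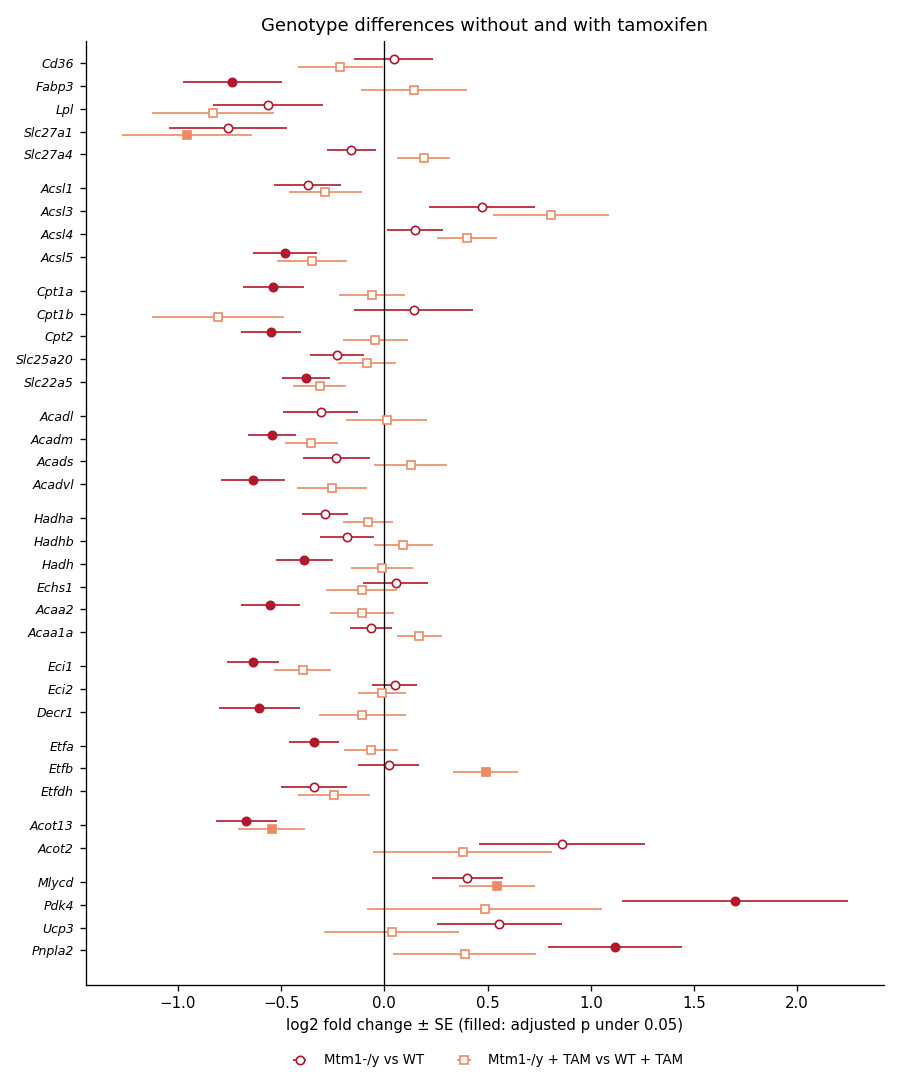
Log2 fold change ± SE of the 36 genes, ordered by role, for Mtm1-/y against WT (circles) and Mtm1-/y + TAM against WT + TAM (squares), filled where the adjusted p was under 0.05. Of the circles 15 are filled, 13 left of 0 and *Pdk4* and *Pnpla2* right of it, and of the squares 4 are filled, of which *Acot13* alone is filled in both.

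Compared with untreated WT mice, the treated mutants had 6 of the 36 genes lower and 0 higher, while 23.3% of all genes were called (11.3% lower and 11.9% higher), and the 36 had a median log2 fold change of -0.13. *Lpl* (chromosome 8, 68880491 to 68907448) measured 182, 147 and 170.0 CPM in Mtm1-/y + TAM mice against 343 ± 8.26 CPM in WT (SD, n = 4), below every WT library (log2 fold change -1.05, SE 0.30, adjusted p = 0.0204). *Acsl5* measured 4.98, 7.86 and 7.502 CPM against 9.40, 9.92, 12.0 and 10.8 CPM in WT (log2 fold change -0.62, SE 0.17, adjusted p = 0.0159). The carnitine importer *Slc22a5* measured 8.85, 8.02 and 8.21 CPM against 13.3, 10.04, 11.3 and 12.5 CPM (log2 fold change -0.50, SE 0.13, adjusted p = 0.0119). *Acot13* (log2 fold change -0.55, adjusted p = 0.0229) was lower here as in both comparisons above. The present comparison reuses the WT libraries of the first and the Mtm1-/y + TAM libraries of the second, so it is not independent of them. *Eci1* measured 46.0, 36.8 and 49.1 CPM (log2 fold change -0.43, adjusted p = 0.0332) and *Acadm* 223, 197 and 229 CPM (log2 fold change -0.40, adjusted p = 0.0313). For none of these 6 did the groups overlap, and 18 of the 36 genes did not overlap between these groups, against 41.4% of all. With a fit of these 2 groups alone the count was 16, with 12 lower and 4 higher, and it was 1 without Mtm1-/y + TAM replicate 2, 3 without WT replicate 4 or Mtm1-/y + TAM replicate 1, and 11 without Mtm1-/y replicate 1. Over all genes 3615 were called in the main fit and 5420 in the fit of these 2 groups alone. With those libraries left out, in the order given, the all-gene calls were 2188, 2778, 2695 and 4550. None of the 6 calls held in all 24 alternatives. *Acadm* was lost in 7 (with the replicate block among them), *Eci1* in 4, *Lpl* in 3, *Acot13* in 2 and *Acsl5* and *Slc22a5* in 1 each. Of 10 endothelial genes 9 were lower here. The adipocyte sum was 958 to 1904 CPM against 3098 to 3976 CPM in WT, with *Car3* the gene called lower. Of the macrophage list 3 of 10 (*Cd163*, *Lyz2*, *Ctss*) and of the liver list 4 of 6 (*Alb*, *Apoa1*, *Apoa2*, *Ttr*) were higher. Of the slow and oxidative fibre list *Tnni1* was higher and *Myl3* lower, with a median log2 fold change of 1.46 and 7 of 10 without overlap. The part of these cells was not tested.

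Treated and untreated mutants were compared to see whether tamoxifen moves these genes when *Mtm1* is absent. The test called 0 of the 36 genes, and 1 had an unadjusted p under 0.05. Of all genes 0.0129% were called. DESeq2 and limma-voom also called 0. The median log2 fold change was 0.10, against 0.00 for all genes, and in 9 of the 36 the groups did not overlap, against 5.71% of all genes. *Acaa2*, with the smallest p, measured 182, 179 and 199.8 CPM in treated against 113, 160.4, 166 and 147 CPM in untreated mutants (log2 fold change 0.35, SE 0.15, adjusted p = 0.855). *Cpt1b* and *Fabp3* came next, each with an adjusted p of 0.855 and with log2 fold changes of -0.68 (SE 0.32) and 0.53 (SE 0.26). *Fabp3* measured 66.8, 79.1 and 66.8 CPM in treated mutants, all above the 4 untreated ones, and *Cpt1b* 7.79, 7.02 and 7.68 CPM. Without Mtm1-/y replicate 1 the log2 fold change of *Cpt1b* was -0.17. All 10 slow and oxidative fibre genes had positive log2 fold changes (median 0.92, 0 called, 2 with an unadjusted p under 0.05), and their sum was 4845 to 5082 CPM in treated and 3437 to 3899.8 CPM in untreated mutants, with no overlap. The part of these fibres was not tested. Without Mtm1-/y replicate 1 the values of *Slc27a1*, *Acsl1*, *Echs1*, *Acot2* and *Mlycd* turned from negative to positive, with none called. The log2 fold change of *Pdk4* was -0.64 (SE 0.58) and that of *Pnpla2* -0.58 (SE 0.35), each with overlapping groups.

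In WT mice tamoxifen likewise gave 0 calls among the 36 genes (1 by unadjusted p under 0.05, 0 by DESeq2 and limma-voom), while 0.309% of all genes were called. No gene of the 36 had groups without overlap, against 8.08% of all genes. The median log2 fold change was -0.07, and it was 0.03 without WT + TAM replicate 1 and -0.20 without WT + TAM replicate 4. *Cpt1a* had the smallest p, with 15.1, 15.8, 11.2 and 12.5 CPM in treated against 19.6, 14.3, 15.4 and 21.1 CPM in untreated WT libraries (log2 fold change -0.37, SE 0.15, adjusted p = 0.35), followed by *Acsl3* (log2 fold change -0.54, adjusted p = 0.464) and *Acsl5* (log2 fold change -0.27, adjusted p = 0.548). The spread of the treated WT group was wide, with an SD of 777 CPM around a mean of 837 for *Pdk4* and of 96.0 around 268 for *Acadl*. All 10 slow and oxidative fibre genes had positive log2 fold changes (median 2.17, 0 called, 6 with an unadjusted p under 0.05). The slow and oxidative fibre sum ranged from 3715 to 7962 CPM and the adipocyte sum from 3618 to 10208 CPM in WT + TAM libraries, whose part was not tested. The 2 tamoxifen comparisons share no group, though for each gene their p-values rest on 1 estimate of the spread from all libraries. The values of both comparisons are plotted side by side.

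**Figure D5:**
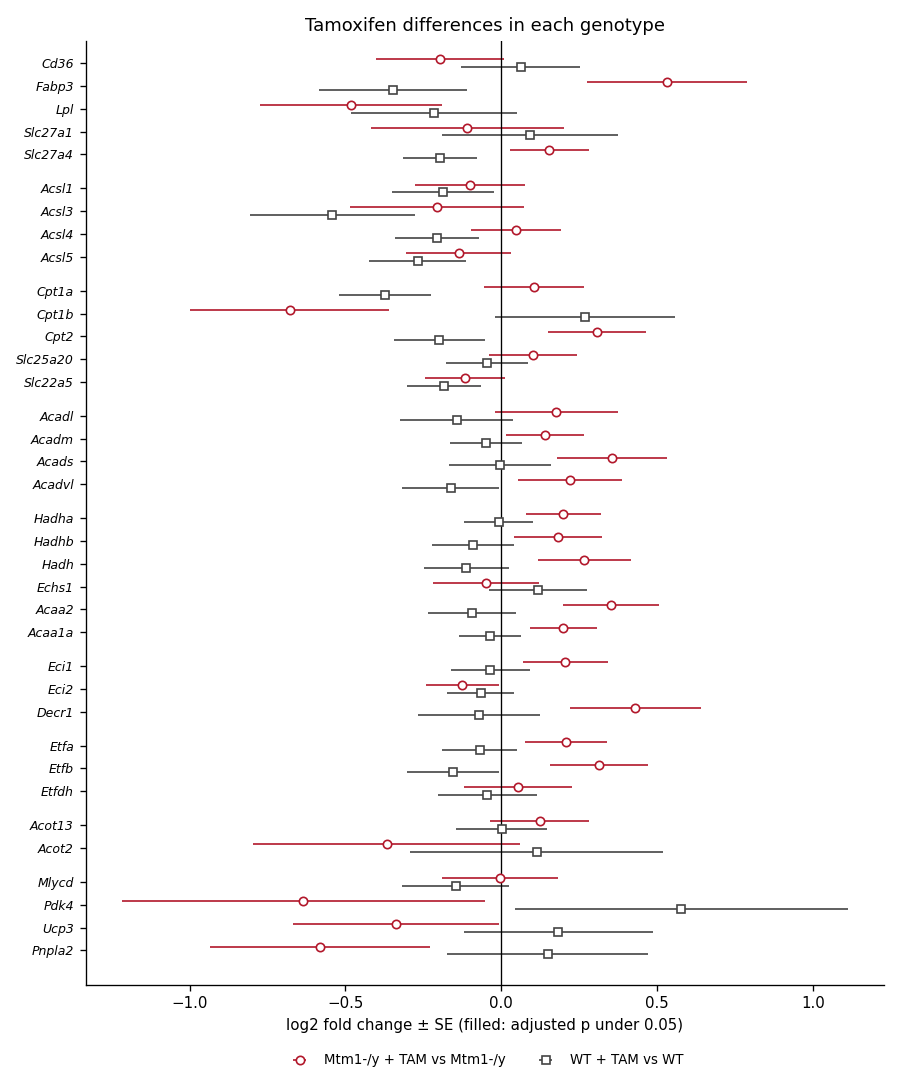
Log2 fold change ± SE of the 36 genes, ordered by role, for Mtm1-/y + TAM against Mtm1-/y (circles) and WT + TAM against WT (squares). All symbols are open because none had an adjusted p under 0.05, and the circles of *Acaa2*, *Fabp3* and *Decr1* lie to the right of 0 by 0.35, 0.53 and 0.43.

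The interaction asks whether the genotype difference changes with tamoxifen. It called 0 of the 36 genes and 0 of all 15533, with 6 of the 36 at an unadjusted p under 0.05, and DESeq2 and limma-voom called 0 of the 36. The median log2 interaction of the 36 genes was 0.20, against -0.01 for all genes. *Fabp3*, *Cpt2* and *Cpt1b* had the smallest p, with log2 interactions of 0.88 (SE 0.35, adjusted p = 0.418), 0.50 (SE 0.21, adjusted p = 0.436) and -0.95 (SE 0.43, adjusted p = 0.464). The larger number of calls without tamoxifen than under it is therefore not shown to be a difference between the comparisons for any single gene.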

How the data were processed

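The deposited values are read counts per gene in 15 RNA-seq libraries of tibialis anterior muscle, made by the authors from raw reads and not normalized. Tools named in the submitters' processing notes are STAR 2.5.3a, Bowtie2 2.2.8, HTSeq 0.6.1p1 and cutadapt 1.10. The sources used here do not say whether counting was by strand. Gene positions and exon lengths came from GENCODE M21 and promoter windows from RefSeq, both on GRCm38.p6.

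Counts of 30672 genes were filtered with filterByExpr (minimum count 10), scaled by TMM and fitted with edgeR 4.0.16 (quasi-likelihood, robust, 4 group means, 15 libraries, 11 residual degrees of freedom) in R 4.3.3. P-values were adjusted by Benjamini-Hochberg over 15533 genes, and a gene was called at an adjusted p under 0.05. A log2 fold change is the first group over the second, and its SE was taken as its size divided by the square root of F. CPM used library size times the TMM factor, and RPKM divided it by exon length in kilobases. The fit was checked on simulated counts for Mtm1-/y against WT only. No simulated library was made to stand apart, so the check does not cover libraries that do.

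Genes called in a comparison were named, the 8 largest changes with every library's value, and the 3 smallest p-values where none was called. From the other lists, called genes were named, up to 3 a list by size, besides *Ppara*, *Ppard*, *Ppargc1a*, *Plin5* and *Pdk2*. A gene that this rule would name is not reported here. The 36 genes and all lists were chosen with earlier results of these data known, and *Cpt1b*, *Lpl* and other genes outside that rule were named after their values were seen. Alternatives were RLE and upper-quartile factors, no filter, a minimum count of 50, DESeq2 1.42.0, limma-voom (limma 3.58.1), the compared groups alone, a replicate block, each library left out, both libraries that stand apart left out, and a log2 fold change over 1 in size. The limit on fold change was applied to counts of calls only, so the 24 alternatives given for single genes leave it out. The depth of 18042558 to 45823277 counts gave at least 73 counts for each of the 36 genes in every library.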

Additional observations from a re-analysis of the deposited data

Results flagged for a closer look

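In 11 of 108 sets of replicate values (the 36 genes in each group of 4), 1 library lay far from the other 3 by Dixon's 95% limit, which is 10.2%, where chance flags about 1 in 20, or 5.4 sets. Of these, 6 were in Mtm1-/y replicate 1. In that library *Slc27a1* stood at 85.27 CPM (the others 27.62 to 35.94), *Acot2* at 17.05 CPM (3.561 to 5.727) and *Pnpla2* at 935 CPM (269.1 to 348.5), all above the rest. The same library was below the rest for *Acads* with 75.09 CPM (120.1 to 127.7), *Hadh* with 106 CPM (154.1 to 159.7) and *Decr1* with 49.85 CPM (90.66 to 98.97).

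In WT + TAM, *Acaa1a* was low in replicate 1 at 29.22 CPM (36.26 to 37.45) and *Ucp3* high in replicate 4 at 355.7 CPM (148.9 to 173.2). In WT, *Etfdh* was low in replicate 2 at 134.5 CPM (147.9 to 149.5) and *Acot13* high in replicate 4 at 74.13 CPM (68.95 to 69.44). *Acot13* was also high in Mtm1-/y replicate 3, at 54.82 CPM (40.21 to 41.87), which is below every WT library.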

How the results depend on the processing

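No called gene changed direction under any alternative. In 2 comparisons the median over these 36 genes turned in sign on the log2 scale, from -0.07 to 0.03 for WT + TAM against WT without WT + TAM replicate 1, and from -0.06 to 0.05 for Mtm1-/y + TAM against WT + TAM without WT + TAM replicate 4. For Mtm1-/y against WT the count of 15 called genes became 8 with no filter on low counts (0 higher, 8 lower), 2 with a log2 fold change over 1 in size required, and 8 to 18 with single libraries left out. It was 9, 9 and 8 without WT replicates 1, 3 and 4, and 18 without WT + TAM replicate 1. Over all genes the main fit called 4727. That number became 3939 with no filter, 1536 with the fold limit and 5116 without WT + TAM replicate 1. For Mtm1-/y + TAM against WT + TAM the count of 4 became 2 with no filter, 9 with DESeq2 (3 higher, 6 lower), 14 without both libraries that stand apart, 0 with the fold limit, and 0 to 9 with single libraries left out, as listed in the report. Over all genes 3121 became 2402 with no filter, 3698 with DESeq2, 4600 without both libraries and 934 with the fold limit. For Mtm1-/y + TAM against WT the count of 6 became 16 in a fit of the compared groups alone, 14 without both libraries that stand apart, 1 with the fold limit, and 1 to 11 with single libraries left out. Over all genes 3615 became 5420 with the compared groups alone, 5260 without both libraries and 1215 with the fold limit. The causes of these shifts were not tested. Both tamoxifen comparisons and the interaction had 0 calls under every alternative run, each library left out included. A fit of the compared groups alone was not run for the interaction, which needs all 4. Upper-quartile factors gave 18, 6 and 8 calls in the 3 comparisons of genotype, in the order above. Deviations of same-numbered libraries from their group means correlated at r of -0.113 to 0.306 over 21 pairs, 6 of them over 0.1. The highest was between replicate 2 of Mtm1-/y and replicate 2 of Mtm1-/y + TAM. Whether the numbers pair the samples is not settled by these values. With a replicate block the counts were 15, 4 and 5 in those comparisons and 0 in the other 3. Each group held 3 or 4 libraries, and the biological coefficient of variation over all genes was 20.8%.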
